A study of Mus musculus with 18 samples.

Results

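Complement components and their regulators were followed as 9 named genes out of the 34714 in the expression table. They are C1qa, C1qb and C1qc (the 3 chains of the recognition molecule C1q), C1ra and C1s1 (the proteases of the C1 complex), C3, C4b, Cfb (factor B) and Serping1 (C1 inhibitor). They are fixed by name, with no measured value in the rule, though earlier results of these data were known when the names were chosen. All 9 met the filter on low values, which kept 11937 genes.

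Heart RNA came from C57 mice, the strain in which Kcp was knocked out, in 4 groups: Kcp knockout after transverse aortic constriction (TAC, surgery that narrows the aortic arch so that the heart pumps against a higher pressure, n = 5), Kcp knockout after sham surgery (n = 4), wild type after TAC (n = 5) and wild type after sham surgery (n = 4). The labels give the knockout as KCP knockout with no detail of the allele, and the sources used here give no age, sex or time from surgery to collection. Knockout sham replicate 2 stayed outside the fit, because its library name joins the names of replicates 3 and 4, and its values are given apart. Knockout TAC replicate 4 also has a library name that joins a pair of names, neither of another library here, and was kept. Whether each library is from its own mouse is not stated, so p-values speak to the variation among libraries, which may be technical. Values are FPKM (fragments scaled to transcript length and to the size of the library), a unit inferred from the values, and depth is unknown.

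Complement is a cascade of plasma proteins that tags cells and debris for removal. In the classical pathway C1q binds a target and the proteases C1r and C1s, which it carries, cleave C4 and C2 to form a convertase that cleaves C3. Factor B forms the convertase of the alternative pathway, which amplifies C3 cleavage, and C1 inhibitor blocks C1r and C1s. Liver supplies most plasma C3 and C4, whereas tissue macrophages are a known source of C1q and fibroblasts of several other components.

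The libraries had 11027 to 11377 genes at 1 FPKM or more. The cardiomyocyte markers were at 51.7 FPKM or more in every library of the fit. Of 6 liver cell markers, Alb, Apob and Fgb were listed at 0 in all 17 libraries, Apoa1 and Serpina1a reached at most 0.238 and 0.0285 FPKM, and Ahsg was at 1.40 to 4.02 FPKM, and no adipocyte marker passed 0.228 FPKM. Kcp averaged 0.762 ± 0.197 FPKM in knockout TAC and 0.665 ± 0.00891 FPKM in knockout sham, against 1.12 ± 0.204 in wild-type TAC and 1.03 ± 0.279 in wild-type sham (SD), so that within each surgery every knockout library was below every wild-type one, with the RNA still present. Ndufb4c split the libraries into sets that nearly follow genotype: all knockout libraries and wild-type TAC replicate 5 had 4.47 to 11.2 FPKM, and the other wild-type libraries had 35.9 to 49.4 FPKM. Differences between genotypes therefore cannot be told apart from that split except through wild-type TAC replicate 5.

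The genes lie in clusters. On mm10 (RefSeq annotation of GRCm38.p6) C1qb (chr4:136880126-136886200), C1qc (chr4:136889801-136892936) and C1qa (chr4:136895916-136898844) follow each other on the minus strand within 18719 bases. C1ra (chr6:124512621-124523440) and C1s1 (chr6:124530344-124542392) are neighbours on opposite strands, 95.0 Mb from Kcp on the same chromosome. C4b (chr17:34728139-34743902) and Cfb (chr17:34856374-34862514) lie 112471 bases apart. C3 (chr17:57203967-57228136) and Serping1 (chr2:84765360-84775444) stand alone. All 9 are protein-coding. Related copies exist for C1ra (C1rb), C1s1 (C1s2) and C4b (C4a), whose likeness in sequence was not measured here. The sources used here do not say how reads were split between copies, so the levels of these members are uncertain to that extent. In the fit the copies reached at most 1.98 FPKM for C1rb, 0.184 for C1s2 and 0.335 for C4a.

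RefSeq promoters (250 bases before to 50 after the start, GRCm38.p6) matched 5 of the 9 members, C1qb, C1qc, C1ra, C1s1 and C3, and none was matched for C1qa, C4b, Cfb and Serping1. Those of the neighbours C1qb and C1qc, which rose together after TAC in the knockout, are shown with that of C3, which passed in none of the 5 comparisons as fitted below. They are printed 5′ to 3′ on the gene's strand, and capitals mark matches to the motifs searched.
C1qb (chr4:136886151-136886450, minus strand): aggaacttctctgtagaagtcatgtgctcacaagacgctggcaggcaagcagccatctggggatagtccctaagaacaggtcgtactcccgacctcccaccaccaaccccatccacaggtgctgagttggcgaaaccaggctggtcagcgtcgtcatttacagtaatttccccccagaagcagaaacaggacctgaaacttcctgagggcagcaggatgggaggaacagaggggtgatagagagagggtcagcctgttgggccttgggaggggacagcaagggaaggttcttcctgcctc
C1qc (chr4:136892865-136893164, minus strand): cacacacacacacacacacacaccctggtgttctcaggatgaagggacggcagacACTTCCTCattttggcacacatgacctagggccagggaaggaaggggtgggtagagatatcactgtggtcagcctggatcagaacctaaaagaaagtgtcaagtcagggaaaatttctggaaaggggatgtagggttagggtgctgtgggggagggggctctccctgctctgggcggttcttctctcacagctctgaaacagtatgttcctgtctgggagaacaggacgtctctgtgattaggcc
C3 (chr17:57228087-57228386, minus strand): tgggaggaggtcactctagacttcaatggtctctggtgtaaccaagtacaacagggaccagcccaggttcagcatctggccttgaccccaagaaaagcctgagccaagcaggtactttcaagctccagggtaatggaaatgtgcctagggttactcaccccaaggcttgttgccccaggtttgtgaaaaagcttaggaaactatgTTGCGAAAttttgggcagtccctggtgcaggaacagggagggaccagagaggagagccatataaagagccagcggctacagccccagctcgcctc

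The 6 motifs were searched on both strands in all 32851 RefSeq promoter windows of this length. They were a PU.1 site (GAGGAAGT, a macrophage ETS factor), an ETS-IRF composite element (GGAA and GAAA with 2 bases between), an interferon-stimulated response element (GAAA repeated with 2 bases between), a gamma-activated site (TTCNNNGAA), a kappaB site (GGGA, 2 bases, T, 1 base, CC) and a C/EBP site (TTNNGCAA). The ETS-IRF and interferon patterns share letters, so matches to them can overlap. The shares of all windows with a match were 3.2%, 2.72%, 3.44%, 8.3%, 4.01% and 10.8% in that order. The C1qc window held the PU.1 letters, read on the opposite strand, at -195 to -188 from the start. The C3 window held the C/EBP letters at -45 to -38, also on the opposite strand. The C1qb window held none of the 6. The C1ra window held a C/EBP match and a gamma-activated site match, both after the start, and 1 of the C1s1 windows held a C/EBP match. These are matches of letters, not shown to be sites.

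By level the members spanned a wide range in FPKM, a scale that allows for length. Over the 17 libraries of the fit Serping1 was highest at a mean of 102 FPKM, above 95.4% of the genes tested. C1qa (61.6 FPKM) and C1qb (60.3 FPKM) were next and did not differ beyond their spread, followed by C1qc (47.4), C3 (31.3), C1s1 (11.6), C1ra (8.44), C4b (5.43) and Cfb (1.77 FPKM, above 15.5% of the genes tested).

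**Figure D1:**
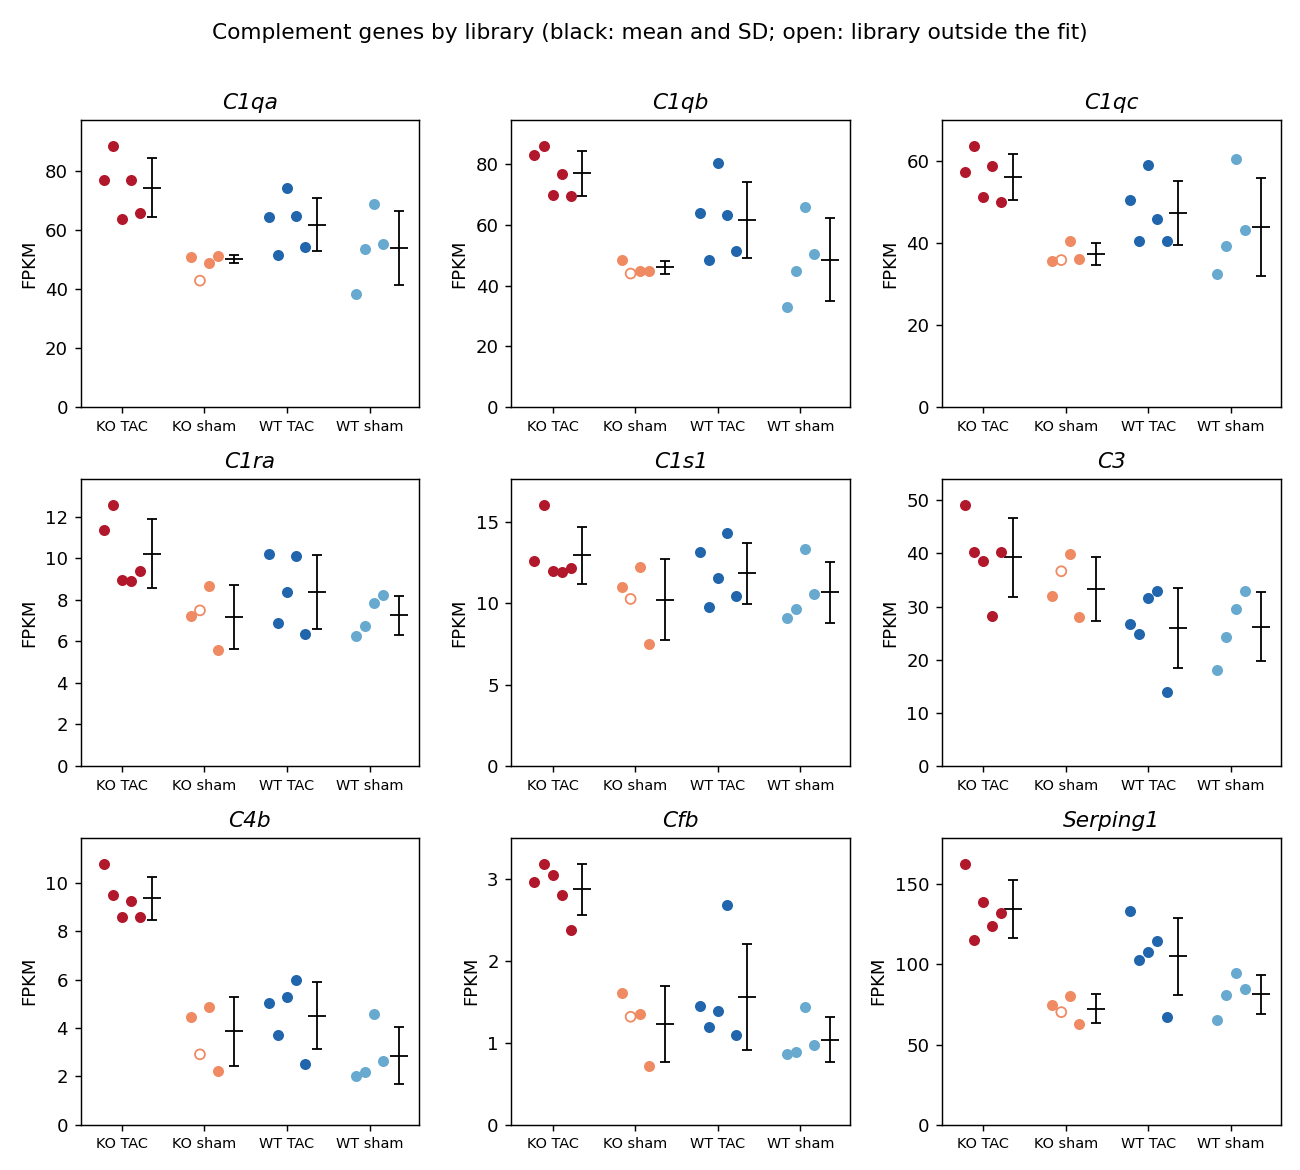
Level of each of the 9 complement genes (vertical axis, FPKM, from 0) in every library of the 4 groups (horizontal axis). Points are libraries, the open point is knockout sham replicate 2, and black marks give the mean and SD of the libraries in the fit. The knockout TAC points of C4b, 8.61 to 10.8 FPKM, lie above every other point.

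Most of the complement genes were higher in knockout hearts after TAC. Relative to knockout sham, 7 of the 9 rose after TAC and 0 fell, where 21.1% of all genes tested rose, 17.7% fell and 38.8% moved in either direction (limma, Benjamini-Hochberg adjusted p under 0.05). C4b, the substrate of C1s, rose most, 2.20-fold, followed by Serping1 at 1.84-fold, Cfb at 1.76-fold and C1qb at 1.65-fold, all on the log2(FPKM + 1) scale, which understates the change of low genes such as Cfb. The libraries of knockout TAC and knockout sham did not overlap for those 7 genes, where 35.8% of all genes tested showed no overlap. The median log2 change of the 9 was 0.57, against 0.01 over all genes tested.

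The C1q chains rose as a block in the knockout. C1qa had 76.9, 88.3, 63.8, 77.0 and 65.6 FPKM in knockout TAC and 50.9, 48.8 and 51.1 FPKM in knockout sham. Every TAC library was above every sham library, and the sham libraries lay within a few FPKM of each other (log2 change 0.55 ± 0.15 SE, limma adjusted p = 0.0084). C1qb, the second chain, had 82.9, 85.9, 69.9, 76.6 and 69.6 FPKM in knockout TAC and 48.6, 44.7 and 44.9 FPKM in knockout sham. Its groups were also apart (0.72 ± 0.18, limma adjusted p = 0.00388). C1qc, the third chain, was at 50.03 to 63.7 FPKM in knockout TAC and 35.7 to 40.5 FPKM in knockout sham (0.57 ± 0.15, limma adjusted p = 0.0076). Knockout sham replicate 2 had 42.8, 44.0 and 35.9 FPKM of C1qa, C1qb and C1qc, below all the TAC libraries as well.

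C1q moved beside the summed level of macrophage markers. The 15 macrophage markers summed to 204 to 276 FPKM in knockout TAC and 155 to 170 FPKM in knockout sham, and to 168 to 259 FPKM in wild-type TAC and 141 to 226 FPKM in wild-type sham. None of the 15 was at 0 in any library of the fit. Lyz2 made up 56.2% to 64.7% of the sum over the groups. Of the 13 that met the filter, 4 rose in the knockout after TAC (Adgre1, Cd14, Tyrobp and Lyz2) and 0 fell, where 21.1% of all genes tested rose. Csf1r (0.32), Cd68 (0.44), Mrc1 (0.28), Lyve1 (0.29), Fcgr1 (0.34) and Mertk (0.16) had positive log2 changes that did not pass. Cd163 (-0.12), Folr2 (-0.23) and Timd4 (-0.15) had negative ones that did not pass. In wild type after TAC 1 of the 13 rose (Cd14) and 1 fell (Timd4), where 10.7% of all genes tested rose and 11.2% fell. The 3 C1q chains together were 0.866 ± 0.0395 of the marker sum in knockout TAC and 0.824 ± 0.0278 in knockout sham (SD), and 0.806 ± 0.0491 in wild-type TAC and 0.81 ± 0.06 in wild-type sham. The C1q sum itself was 208 ± 22.6 FPKM in knockout TAC against 134 ± 1.43 FPKM in knockout sham. With Lyz2 left out of the marker sum the ratio was 2.27 ± 0.133 in knockout TAC (2.13 to 2.44) and 2.05 ± 0.0942 in knockout sham (1.94 to 2.12), and 2.07 ± 0.155 in wild-type TAC and 1.93 ± 0.169 in wild-type sham. The C1q sum over Csf1r alone was 15.1 ± 1.91 in knockout TAC and 12.5 ± 1.69 in knockout sham. The ratio ranges in the knockout thus overlapped with Lyz2 in the sum and were just apart without it, and the ratios were not tested. The part of macrophage content in the C1q change was not tested. In bulk tissue more cells of a type and more RNA per cell cannot be told apart.

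**Figure D2:**
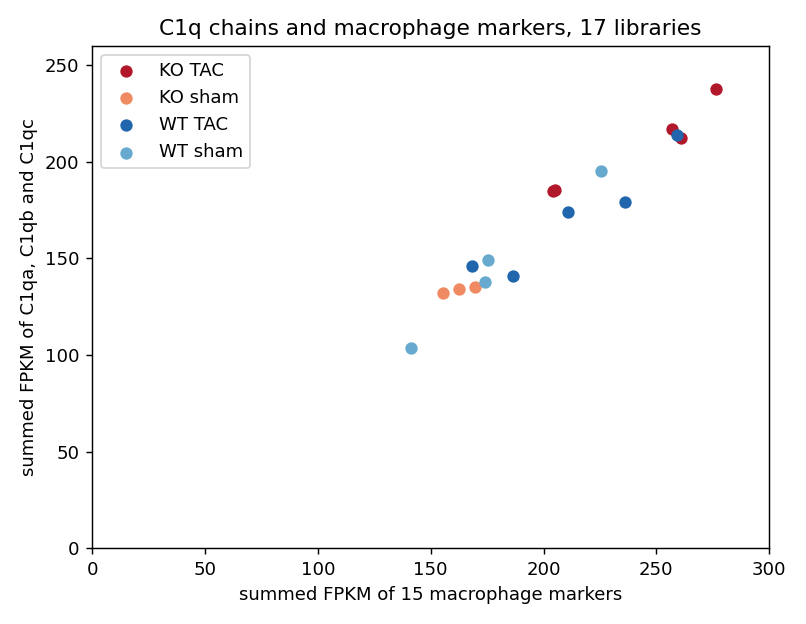
Summed FPKM of C1qa, C1qb and C1qc (vertical axis) against the summed FPKM of 15 macrophage markers (horizontal axis), 1 point for each of the 17 libraries of the fit, coloured by group. The points lie along a narrow band, with knockout TAC between 185 and 238 FPKM of C1q and knockout sham between 132 and 135 FPKM.

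The chains did not keep quite the same proportions. C1qa was 0.963 ± 0.0505 of C1qb in knockout TAC and 1.09 ± 0.0441 of it in knockout sham, and 1.01 ± 0.0557 in wild-type TAC and 1.13 ± 0.0659 in wild-type sham (SD, n = 5, 3, 5 and 4). The ratio in knockout TAC ran from 0.913 to 1.03, below the knockout sham range of 1.05 to 1.14, although knockout sham replicate 2, at 0.974, fell inside the TAC range. In wild type the ranges, 0.923 to 1.06 after TAC and 1.05 to 1.19 in sham, overlapped. The ratio was not tested.

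Of the C1 proteases, C1ra passed in the knockout and C1s1 did not. C1ra had 11.3, 12.6, 8.93, 8.90 and 9.36 FPKM in knockout TAC and 7.24, 8.68 and 5.60 FPKM in knockout sham, so that the groups came close without overlapping. It rose by 0.46 ± 0.15 on the log2 scale (limma adjusted p = 0.0248), a call that was lost without knockout sham replicate 4 (0.32, limma adjusted p = 0.155), knockout sham replicate 1 (adjusted p = 0.0558), knockout TAC replicate 1 (adjusted p = 0.0537) or knockout TAC replicate 2 (adjusted p = 0.0537). C1s1 had 12.6, 16.0, 11.9, 11.9 and 12.2 FPKM in knockout TAC against 11.01, 12.2 and 7.46 FPKM in knockout sham. Those groups overlapped, and C1s1 did not pass (0.33 ± 0.15, limma adjusted p = 0.0911). Leaving out knockout sham replicate 3 put it past the threshold (0.46, limma adjusted p = 0.0412).

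Downstream of C1, C4b and C3 behaved differently in the knockout. C4b had 10.8, 9.51, 8.61, 9.26 and 8.61 FPKM in knockout TAC, against 4.46, 4.88 and 2.24 FPKM in knockout sham and 2.92 FPKM in the library outside the fit. The lowest TAC library was well above the highest sham library (log2 change 1.13 ± 0.23, limma adjusted p = 0.00118). C3, on which all pathways converge, had 49.1, 40.3, 38.6, 28.2 and 40.2 FPKM in knockout TAC against 32.0, 40.0 and 28.0 FPKM in knockout sham. Its groups overlapped, with knockout TAC replicate 4 at the sham level, and it did not pass (0.22 ± 0.25, limma adjusted p = 0.508). C4b was 0.244 ± 0.0478 of C3 in knockout TAC and 0.114 ± 0.0305 of it in knockout sham (SD). In wild type C4b was 0.173 ± 0.015 of C3 after TAC and 0.109 ± 0.0333 in sham, the same direction. The ratio was not tested.

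The alternative pathway protease and the inhibitor of C1 rose in the knockout. Cfb had 2.96, 3.19, 3.05, 2.80 and 2.37 FPKM in knockout TAC against 1.61, 1.36 and 0.714 FPKM in knockout sham, with no overlap (0.82 ± 0.16, limma adjusted p = 0.000728). Serping1 had 163, 115, 139, 124 and 132 FPKM in knockout TAC against 74.5, 80.1 and 62.8 FPKM in knockout sham, again apart (0.88 ± 0.17, limma adjusted p = 0.000824). Of the 10 fibroblast markers, 7 rose beside them and 0 fell, where 21.1% of all genes tested rose and 17.7% fell. Tcf21 (0.21), Dpt (-0.037) and Gsn (-0.24) did not pass. The 10 summed to 816 to 1156 FPKM in knockout TAC and 719 to 796 FPKM in knockout sham. None was at 0 in a library of the fit. Dcn and Gsn were the highest of the 10. They averaged 345 and 325 FPKM in knockout TAC, and 253 and 380 FPKM in knockout sham. Serping1 was 0.389 ± 0.0235 of the fibroblast proteoglycan gene Dcn in knockout TAC and 0.287 ± 0.00782 of it in knockout sham (SD). In wild type it was 0.299 ± 0.0264 of Dcn after TAC and 0.295 ± 0.0199 in sham. Dcn rose 1.36-fold in the knockout. Lum (2.14-fold), Col1a1 (3.76-fold), Col1a2 (3.05-fold), Mfap5 (6.08-fold) and Pi16 (2.91-fold) rose by more than Serping1 there, and the other markers by less or not at all. The direction of such a ratio thus depends on the marker. The ratio was not tested. The part of fibroblast content in the changes of Cfb and Serping1 was not tested.

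**Figure D3:**
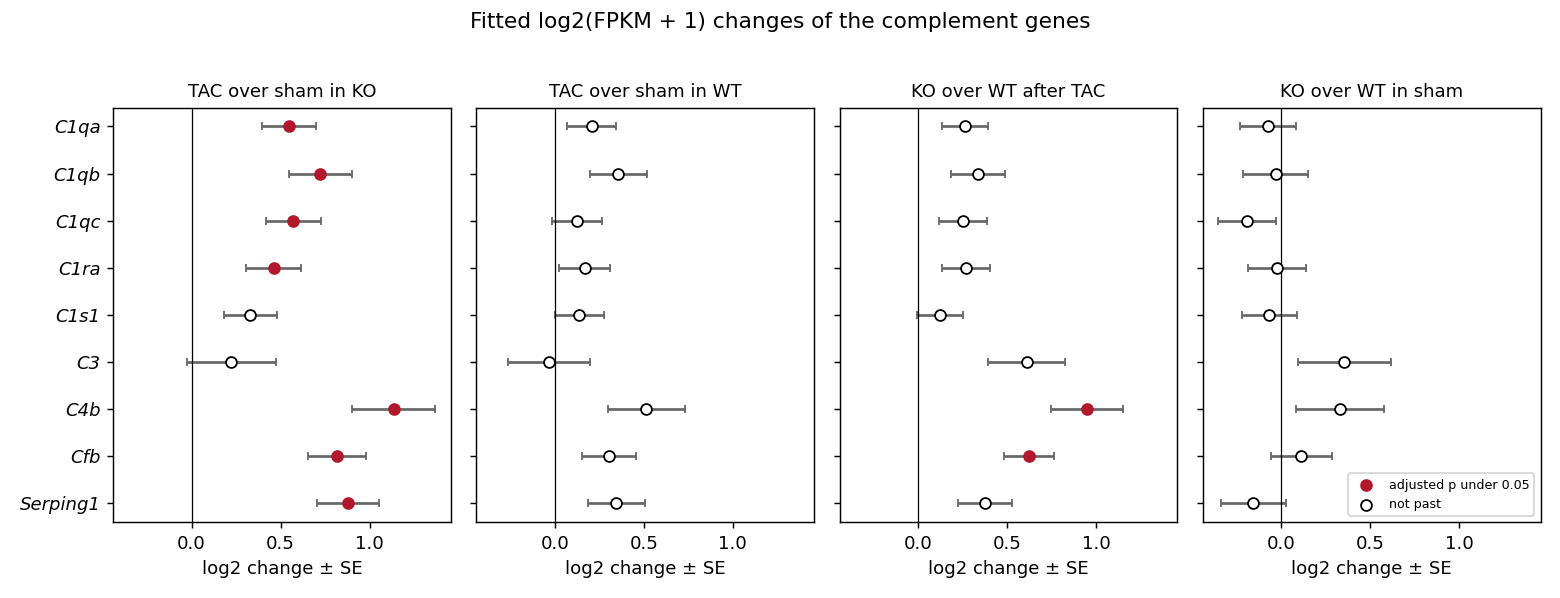
Fitted log2(FPKM + 1) change with its standard error (horizontal axis) of each complement gene (vertical axis) in 4 comparisons, 1 panel each. Filled points passed an adjusted p under 0.05: 7 genes for TAC over sham in the knockout, 0 in wild type, 2 for knockout over wild type after TAC and 0 in sham.

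In wild-type hearts the same surgery moved none of the 9 genes past the threshold. After TAC 0 of the 9 passed relative to wild-type sham (limma, Benjamini-Hochberg, with 3 at an unadjusted p under 0.05), where 10.7% of all genes tested rose, 11.2% fell and 21.9% passed in either direction. The log2 changes ran from -0.03 for C3 to 0.51 for C4b, 8 of the 9 were above 0, and their median was 0.21 against -0.01 over all genes tested. All 9 overlapped between the groups, where 21.7% of all genes tested did not.

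C4b had 5.02, 3.71, 5.28, 5.997 and 2.52 FPKM in wild-type TAC against 2.03, 2.20, 4.59 and 2.62 FPKM in wild-type sham. Sham replicate 3 lay among the TAC libraries and TAC replicate 5 among the sham libraries (0.51 ± 0.22, limma adjusted p = 0.101). Without TAC replicate 5 the change of C4b was 0.67 (limma adjusted p = 0.0236), and without sham replicate 3 it was 0.71 (adjusted p = 0.0262). Serping1 had 133, 103, 107, 115 and 67.1 FPKM in wild-type TAC against 65.1, 80.7, 94.5 and 84.8 FPKM in wild-type sham (0.34 ± 0.16, limma adjusted p = 0.138). Replicate 5 alone of the TAC libraries fell within the sham range, and without it Serping1 changed by 0.50 (limma adjusted p = 0.00731). Of the 10 fibroblast markers, 4 rose and 1 fell in wild type after TAC, where 10.7% of all genes tested rose and 11.2% fell. The fibroblast marker sum was 789 FPKM in TAC replicate 5 against 984 to 1176 FPKM in the other TAC libraries. The macrophage marker sum was lowest in replicate 5 as well, at 168 FPKM against 186 to 259 FPKM.

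C1qb had 64.0, 48.5, 80.4, 63.3 and 51.5 FPKM in wild-type TAC against 32.9, 44.9, 65.9 and 50.4 FPKM in wild-type sham, a wide overlap (0.36 ± 0.16, limma adjusted p = 0.127). Without sham replicate 3 the change was 0.52 (limma adjusted p = 0.0238). That library was highest of wild-type sham for 7 of the 9 members and replicate 1 was lowest for all 9. Their macrophage marker sums, 226 and 141 FPKM, were also the highest and lowest of the group. So were their fibroblast marker sums, 903 and 676 FPKM. C1qa (0.21 ± 0.14), C1qc (0.12 ± 0.14), C1ra (0.17 ± 0.14), C1s1 (0.14 ± 0.14) and Cfb (0.31 ± 0.15) had small positive values with limma adjusted p from 0.158 to 0.573. Cfb was at 2.69 FPKM in wild-type TAC replicate 4 and at 1.09 to 1.45 FPKM in the other 4 TAC libraries, against 0.865 to 1.44 FPKM in wild-type sham.

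**Figure D4:**
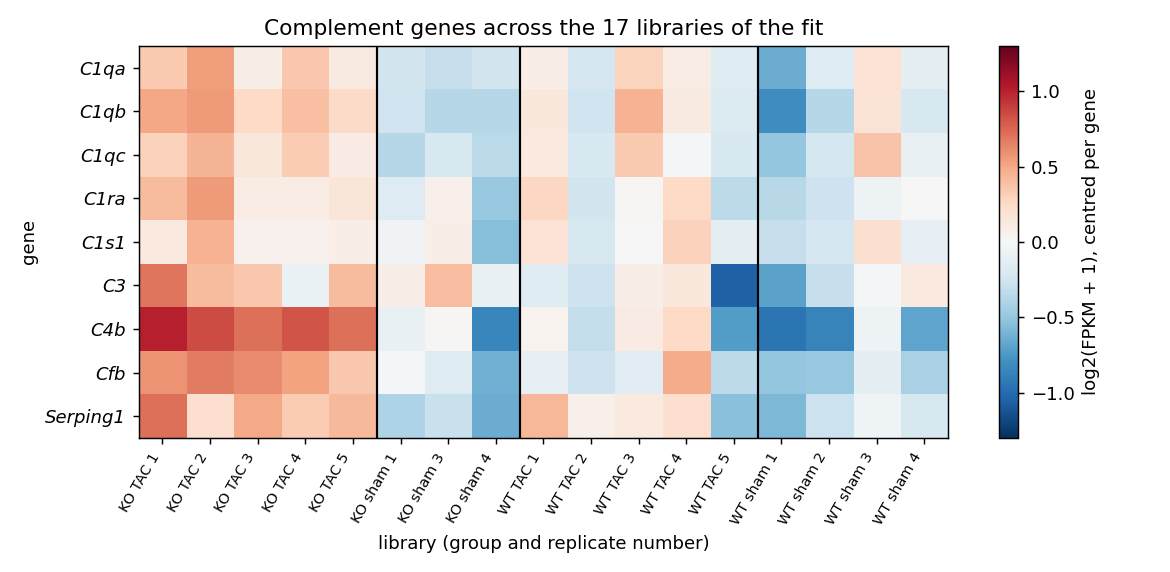
Level of each complement gene (rows) in the 17 libraries of the fit (columns, by group and replicate), as log2(FPKM + 1) centred on the mean of the gene, with red above and blue below the mean. The knockout TAC block is the reddest, C4b most of all, and C3 is lowest in wild-type TAC replicate 5 at 14.0 FPKM.

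Knockout and wild-type hearts were then compared after TAC. C4b and Cfb were higher in the knockout, which makes 2 of the 9 higher and 0 lower where 6.53% of all genes tested were higher, 4.78% lower and 11.3% either (limma, Benjamini-Hochberg). C4b averaged 9.36 ± 0.896 FPKM in knockout TAC and 4.50 ± 1.39 FPKM in wild-type TAC (SD, n = 5 each), a log2 difference of 0.95 ± 0.20 (limma adjusted p = 0.00873). It was the sole member whose groups did not overlap, as did not those of 6.69% of all genes tested. Cfb averaged 2.87 ± 0.313 FPKM in knockout TAC and 1.56 ± 0.644 FPKM in wild-type TAC (0.62 ± 0.14, limma adjusted p = 0.0106), and wild-type TAC replicate 4 lay among the knockout libraries. Of the markers, 0 of 13 macrophage genes passed in this comparison, with 3 at an unadjusted p under 0.05: Tyrobp (0.38 ± 0.12, limma adjusted p = 0.0505), Fcgr1 (0.40 ± 0.13, adjusted p = 0.059) and Adgre1 (0.42 ± 0.14, adjusted p = 0.0613). Meanwhile 2 of 10 fibroblast genes were higher (Col1a1 and Col1a2) and 1 was lower (Gsn). The part of fibroblast or macrophage content in the differences was not tested.

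The other 7 members had positive differences that did not pass. C3 averaged 39.3 ± 7.45 FPKM in knockout TAC and 26.03 ± 7.54 FPKM in wild-type TAC (0.61 ± 0.22, limma adjusted p = 0.0818). Serping1 averaged 134 ± 18.2 FPKM in knockout TAC and 105 ± 24.1 FPKM in wild-type TAC (0.38 ± 0.15, limma adjusted p = 0.12). The C1q chains differed by 0.25 to 0.34 on the log2 scale, C1ra by 0.27 and C1s1 by 0.12, with limma adjusted p from 0.172 to 0.593. The median difference of the 9 was 0.34, against 0.02 over all genes tested.

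Among libraries of the low Ndufb4c set, the 5 knockout TAC libraries can be set against wild-type TAC replicate 5 alone. For C4b these were 8.61 to 10.8 FPKM in knockout TAC against 2.52 FPKM, for Cfb 2.37 to 3.19 against 1.09 FPKM, for C3 28.2 to 49.1 against 14.0 FPKM, and for Serping1 115 to 163 against 67.1 FPKM. Every knockout TAC library was above wild-type TAC replicate 5 for each of these genes, but that library was also the lowest of the wild-type TAC group for all 4. The first principal component carries 50.9% of the variance and separates TAC from sham. Knockout TAC scored 10.1 on it in replicate 2 and 22.6 to 30.1 in the other replicates. Wild-type TAC replicate 5 scored -0.124, whereas wild-type TAC replicates 1 to 4 scored 6.48 to 13.05 and wild-type sham -21.1 to -19.9. With the set as a term in the fit, which rests on that 1 library, C4b differed by 1.55 (limma adjusted p = 0.0214), C3 by 1.41 (adjusted p = 0.0237) and Serping1 by 0.98 (adjusted p = 0.0181), while Cfb did not pass (0.88, adjusted p = 0.0658).

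In sham hearts no member differed between genotypes past the threshold. It was 0 of 9 in either direction (limma, 0 at an unadjusted p under 0.05), where 0.645% of all genes tested were higher, 0.62% lower and 1.26% either in the knockout. The largest differences were 0.35 ± 0.26 for C3 and 0.33 ± 0.25 for C4b. C3 averaged 33.3 ± 6.07 FPKM in knockout sham (n = 3) and 26.2 ± 6.47 FPKM in wild-type sham (n = 4), within the spread. All 9 overlapped, where 15.4% of all genes tested did not.

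Whether TAC changed the members more in the knockout was tested as the interaction. It passed for 0 of the 9 (limma, Benjamini-Hochberg, with 3 at an unadjusted p under 0.05), where 0.93% of all genes tested passed, 0.377% above 0 and 0.553% below. All 9 values were above 0, from 0.19 ± 0.20 for C1s1 to 0.62 ± 0.32 for C4b, and their median was 0.37 against 0.03 over all genes tested. Those at an unadjusted p under 0.05 were Serping1 (0.54 ± 0.24, limma adjusted p = 0.236), Cfb (0.51 ± 0.22, adjusted p = 0.226) and C1qc (0.45 ± 0.21, adjusted p = 0.264). The passing of 7 members in the knockout and 0 in wild type is thus not shown to be a difference between the genotypes.

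Within the knockout TAC group the members did not share their order. Replicate 2 was highest for 6 of the 9 (C1qa, C1qb, C1qc, C1ra, C1s1 and Cfb) and lowest for Serping1. That library had the highest macrophage marker sum of the group, 276 FPKM, and the lowest fibroblast marker sum, 816 FPKM. Its endothelial (1093 FPKM), mural (vessel wall, 256 FPKM), lymphocyte (3.33 FPKM) and erythroid (4144 FPKM) marker sums were also the highest of the group. Its neutrophil, cardiomyocyte, adipocyte, mesothelial and hepatocyte marker sums were not. Replicate 1 was highest for C3, C4b and Serping1 and had the highest fibroblast marker sum, 1156 FPKM. Without wild-type TAC replicate 5 and knockout TAC replicate 2 together, the counts were 7 members for TAC in the knockout, 2 for TAC in wild type (C4b and Serping1) and 2 for knockout over wild type after TAC.

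The genes with profiles most like those of 4 members were found by the root-mean-square difference of centred log2 values over the 17 libraries, among the tested genes that are no members. For C1qa they were Lyz2, Fcer1g, Ifi30, Rab7b and Hcls1, at 0.107 to 0.13. For Serping1 they were Serpine2, Lpar1, S100a6, Mxra8 and Lhfp, at 0.156 to 0.163. For C4b they were Sfrp1, Ctsk, Phlda3, Fcrls and Prss23, at 0.288 to 0.307. For C3 they were Pold4, Fam122b, N4bp2l1, Pirb and Ptpn2, at 0.272 to 0.295, which is large beside the SD of C3 itself, 0.429.

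Other complement genes were counted on a list of 46. Of these, 18 met the filter, 8 were listed at 0 in every library of the fit (among them Mbl1, Mbl2, C8b and C9), and the highest of those that did not meet it, Cfd, reached 1.40 FPKM. Because knockout TAC libraries alone can meet the filter, the 18 may favour genes high there. In knockout hearts 8 of the 18 rose after TAC and 3 fell, where 21.1% of all genes tested rose and 17.7% fell. In wild-type hearts 1 rose and 3 fell, where 10.7% of all genes tested rose and 11.2% fell. C1rb, the copy of C1ra, rose in the knockout (0.34 ± 0.13, limma adjusted p = 0.0437). Knockout over wild type had 2 higher after TAC, where 6.53% of all genes tested were higher, and 1 higher in sham, where 0.645% were. The interaction passed for 0, where 0.93% of all genes tested passed (limma, 2 at an unadjusted p under 0.05).

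The initiators and terminal components were mixed. Masp1, a protease of the lectin pathway, had 12.1, 6.89, 10.998, 11.6 and 9.39 FPKM in knockout TAC against 4.63, 2.67 and 5.94 FPKM in knockout sham, without overlap. It rose in the knockout (1.08 ± 0.20, limma adjusted p = 0.000429) and in wild type (0.70 ± 0.18, adjusted p = 0.0117), and was higher in knockout than in wild type after TAC (10.2 ± 2.12 FPKM against 6.23 ± 1.04 FPKM; 0.62 ± 0.17, limma adjusted p = 0.0295). Wild-type TAC replicate 5 was at 4.45 FPKM, and with the Ndufb4c set as a term Masp1 did not pass between genotypes (1.02, limma adjusted p = 0.0706). Colec11, a lectin recognition molecule, had 10.7 ± 2.26 FPKM in knockout TAC and 12.2 ± 0.153 FPKM in knockout sham and did not pass (-0.20, limma adjusted p = 0.226), though without knockout TAC replicate 2 and wild-type TAC replicate 5 together it fell (-0.30, adjusted p = 0.0304). C7, a subunit of the membrane attack complex, rose in the knockout (0.67 ± 0.20, limma adjusted p = 0.012) and had a wild-type change of 0.12. C8g, another subunit gene, fell in the knockout (-0.46 ± 0.12, limma adjusted p = 0.00651) and in wild type (-0.33 ± 0.11, adjusted p = 0.0476). Without those 2 libraries C8g did not pass in wild type (-0.31, limma adjusted p = 0.0824), and with the Ndufb4c set as a term it also did not (adjusted p = 0.0766).

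Of the 6 other regulators counted, Clu and Cd55 rose in the knockout, Cd59a and Cd59b fell, and Vtn (0.0043) and Cr1l (-0.057) did not pass. Clu, which encodes clusterin, a fluid-phase inhibitor of the attack complex, was at 415 to 1167 FPKM in knockout TAC and 288 to 440 FPKM in knockout sham and rose (1.03 ± 0.24, limma adjusted p = 0.00303). Cd55, which encodes decay-accelerating factor, rose in the knockout as well (0.61 ± 0.21, limma adjusted p = 0.0277). Cd59a and Cd59b, which encode membrane inhibitors of the attack complex, fell in both genotypes. Cd59a averaged 56.6 ± 3.87 FPKM in knockout TAC and 78.1 ± 4.05 FPKM in knockout sham (-0.46 ± 0.06, limma adjusted p = 2.73e-05), against 45.4 ± 3.19 FPKM in wild-type TAC and 56.3 ± 2.09 FPKM in wild-type sham (-0.31 ± 0.06, adjusted p = 0.00152). Cd59b changed by -0.28 ± 0.10 in the knockout and -0.48 ± 0.10 in wild type (limma adjusted p = 0.0455 and 0.00192).

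Cd59a was also higher in knockout than in wild-type hearts in sham (0.46 ± 0.07, limma adjusted p = 0.00158) and after TAC (0.31 ± 0.06, adjusted p = 0.00285). With the Ndufb4c set as a term neither difference passed (0.29, limma adjusted p = 0.763 in sham, and 0.17, adjusted p = 0.371 after TAC). Wild-type TAC replicate 5, of the same set as the knockout libraries, had 49.99 FPKM of Cd59a, beside 50.8 to 61.02 FPKM in knockout TAC and 42.4 to 47.4 FPKM in wild-type TAC replicates 1 to 4. The likeness of Cd59a to Cd59b was not measured, and any sharing of reads between the pair was not tested. Cd59b reached at most 5.43 FPKM in the fit.

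Of the receptors, C5ar1 for the C5a peptide (0.47 ± 0.13, limma adjusted p = 0.00703) and Itgam and Itgb2, the chains of complement receptor 3, rose in the knockout after TAC. Itgb2 averaged 2.81 ± 0.652 FPKM in knockout TAC and 1.75 ± 0.233 FPKM in knockout sham (limma adjusted p = 0.0288), and Itgam averaged 1.71 ± 0.296 FPKM in knockout TAC and 1.11 ± 0.201 FPKM in knockout sham (adjusted p = 0.0173). Without wild-type TAC replicate 5 and knockout TAC replicate 2 together Itgb2 (limma adjusted p = 0.0729), C1rb (adjusted p = 0.0804) and Cd59b (adjusted p = 0.0605) no longer passed in the knockout, and the lectin gene Fcna fell (-0.43, adjusted p = 0.043). C3ar1, the receptor for the C3a peptide, did not pass in either genotype.

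**Figure D5:**
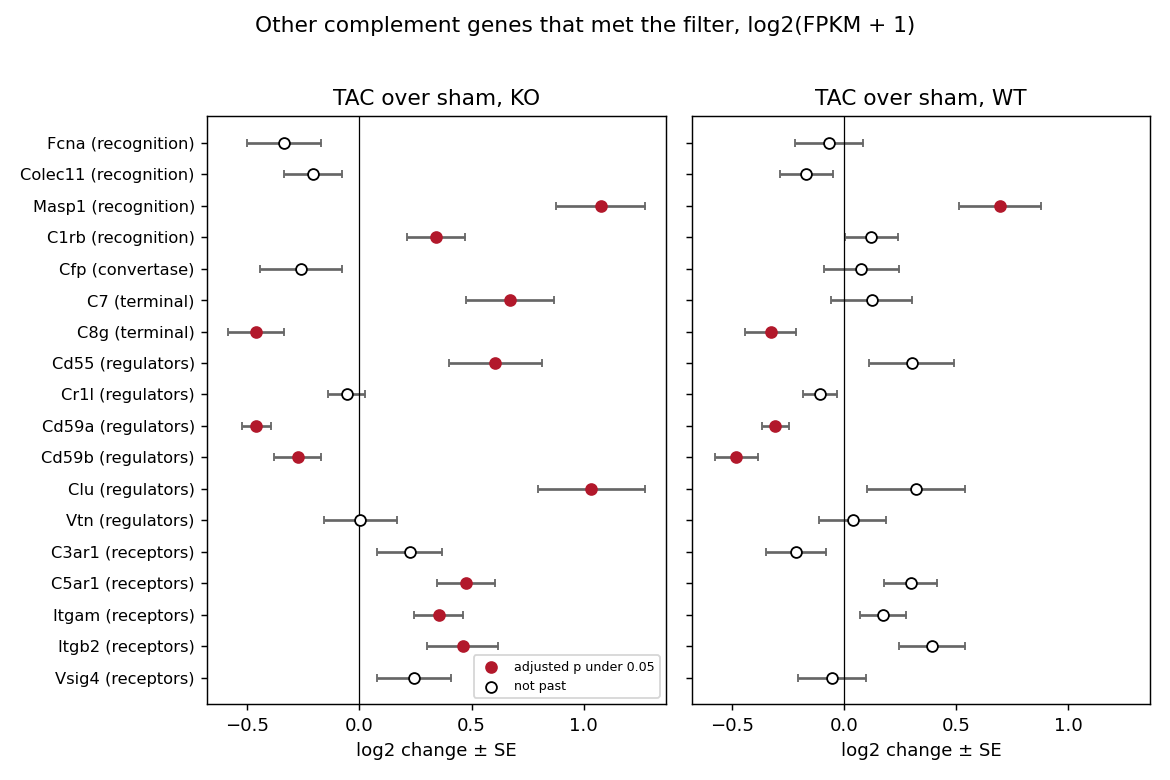
Fitted log2(FPKM + 1) change after TAC with its standard error (horizontal axis) for the 18 other complement genes that met the filter (vertical axis, with their role), in knockout (left) and wild type (right). Filled points passed an adjusted p under 0.05, 11 in the knockout and 4 in wild type, and Cd59a, Cd59b and C8g lie below 0 in both panels.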

How the data were processed

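Total heart RNA went into SMARTER mRNA-seq libraries, per the labels. The authors deposited a table of 34714 genes by 18 libraries. The FPKM unit of the deposited values is inferred. Times GENCODE M21 transcript length, their sum per library over 25731 genes varies by 1.78% (coefficient of variation). Without length, over all 34714 genes, it varies by 2.72%. The gene sets differ, so these figures do not isolate the effect of length. The submitters' processing notes give mm10, and no aligner or counter is given in the sources used here. The depth is unknown. The fit omits knockout sham replicate 2.

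Values were taken as log2(FPKM + 1), and a gene was kept where 3 of the 17 libraries reached 1 FPKM. A model with a mean per group was fitted over all 11937 genes with limma 3.58.1 in R 4.3.3 (trend and robust moderation), with Benjamini-Hochberg adjustment over all of them at 0.05, and was tested on simulated data. Promoters and coordinates came from RefSeq GRCm38.p6. The rule named all members, each other complement gene past the threshold and the 5 genes nearest in profile to each of 4 members; Colec11, C3ar1, Cfd and Fcna were named after their values were seen. Another complement gene on the list is not reported here and is in no count of the other complement genes. Members and lists were chosen with earlier results of these data known. Alternatives changed the pseudocount, filter, scaling, libraries, fold threshold, replicate block and library set. The counting is not stated to use strand. Replicate numbers are not stated to pair libraries, so no block was used.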

Additional observations from a re-analysis of the deposited data

Results flagged for a closer look

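Within the groups of 4 or 5 libraries, 2 values stood far from the rest of their group by Dixon's test, which flags about 1 in 20 groups by chance. It was run for each of the 9 members in knockout TAC, wild-type TAC and wild-type sham, so some flags are expected by chance. C1s1 was at 16.0 FPKM in knockout TAC replicate 2, against 11.9 to 12.6 FPKM in the other knockout TAC libraries. Cfb was at 2.69 FPKM in wild-type TAC replicate 4, against 1.09 to 1.45 FPKM in the other wild-type TAC libraries.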

How the results depend on the processing

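The counts of members past the threshold were recomputed with another pseudocount, filters, scaling, sample sets and terms. For TAC in the knockout, 1 of the 7 members (C4b) also had a log2 change of at least 1, and the count was 6 to 8 with each library left out in turn. For TAC in wild type, the count of 0 became 2 with the Ndufb4c set as a term, 2 without wild-type TAC replicate 5 and knockout TAC replicate 2 together, and 0 to 2 with each library left out. Same-numbered libraries did not deviate together (correlations of -0.24 to 0.16 over 22 pairs). With so few libraries in each group, this cannot exclude that the numbers pair them. With the number as a replicate block, the count for TAC in wild type was 1 (C4b, 0.60, limma adjusted p = 0.0483). For knockout over wild type after TAC, the count of 2 became 1 under a filter of 5 FPKM (which removes Cfb), 0 with a log2 difference of at least 1, and 3 with the set term; it was 2 with each library left out. The counts for sham and for the interaction were 0 under every alternative run. Among other complement genes (alternatives chosen after seeing the data), the count after TAC between genotypes was 0 with the set term and 4 without both libraries (with Clu higher and Vtn lower), and in sham it was 0 with the set term. C3 in wild type after TAC changed sign, to 0.059 under the replicate block and 0.17 with the set term or without both libraries, and ran from -0.19 to 0.17 with each library left out; C1qc there ran from -0.0038 to 0.29. In sham, with the set term, knockout minus wild type turned positive for C1qa (0.14), C1qb (0.26), C1qc (0.066), C1ra (0.39), C1s1 (0.13) and Serping1 (0.60), none past the threshold. With each library left out, the sham difference ran from -0.23 to 0.051 for C1qa, -0.20 to 0.13 for C1qb, -0.16 to 0.12 for C1ra, -0.20 to 0.12 for C1s1 and -0.013 to 0.29 for Cfb, and the interaction of C1s1 from -0.00067 to 0.32. Without a filter on low values C1ra in the knockout had an adjusted p of 0.0504. The cause of these shifts was not tested. Depth is unknown, so counting error at low levels such as those of Cfb cannot be given.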
